A study of Mus musculus with 19 samples.

Results

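The translation initiation factor genes were taken as every row of the deposited count table whose symbol starts with Eif1 to Eif6, leaving out the eIF2 kinases of the Eif2ak family. The table prints symbols in capitals, and they are written here in the mouse style. The rule found 51 of 24982 genes. Of these, 48 had counts and passed the filter on low counts, and *Eif3j1*, *Eif3j2* and *Eif4e1b* had 0 counts in all 19 libraries. Where the reads of a gene are counted, that allows up to 0.537 CPM (counts scaled to the size of the library) in the shallowest library. These 3 genes entered no test. In the reference annotation 90.8% of the 50-base windows of *Eif3j2* transcripts also lie in *Eif3j1*, and 36.6% of those of *Eif3j1* in *Eif3j2*. The sources used here do not say how reads shared by several genes were counted, so the 0 counts do not bound the level of these genes.

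RNA was sequenced from CD4+FoxP3-GFP+ regulatory T cells (Tregs) sorted by flow cytometry as CD44high or CD44low from the injury-site draining lymph nodes of Foxp3DTR mice. In this strain the Foxp3 locus drives a diphtheria toxin receptor with GFP, so all 4 groups carry the same reporter allele. Mice were uninjured (sham) or had a burn injury 7 days earlier, and the labels give neither the age nor the number of mice behind a library. The study used adult mice. There were 5 CD44low and 4 CD44high libraries from uninjured mice, and 6 CD44low and 4 CD44high libraries from injured mice. Nothing says that libraries of a group came from separate mice, so p-values measure only the spread between these libraries.

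Translation initiation begins when eIF2, carrying GTP and the initiator tRNA, joins the small ribosomal subunit together with eIF1, eIF1A, eIF3 and eIF5. The mRNA is brought in by the cap-binding protein eIF4E, the scaffold eIF4G and the helicase eIF4A with its cofactors eIF4B and eIF4H. The eIF4E-binding proteins hold eIF4E away from eIF4G until mTORC1 phosphorylates them, and eIF2B recharges eIF2 with GTP until the eIF2 kinases block it. In T cells these steps set how fast protein synthesis can rise on activation.

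Library totals ran from 5582234 to 9433610 counts. The sort was visible in the RNA. *Cd44* was at 595 CPM in CD44high and 133 CPM in CD44low Tregs of uninjured mice, and *Foxp3* and *Cd3e* were detected in every group. Xist, the RNA of the inactive X chromosome, summed to at most 1.25 CPM in any library, and the 4 Y-linked genes summed to at least 200.1 CPM in every library. The 5 markers of cycling cells were all higher in CD44high Tregs in both subset comparisons, with summed levels of 562 to 751 CPM against 98.5 to 122 CPM in uninjured mice and 409 to 500.2 CPM against 95.2 to 151 CPM in injured mice. The 5 macrophage and dendritic cell markers summed to 64.2 to 135 CPM in CD44high and 19.8 to 37.2 CPM in CD44low libraries of uninjured mice, and to 81.3 to 222 CPM and 31.6 to 142 CPM in injured mice. The 5 B cell markers summed to between 70.3 and 206 CPM over all libraries, and the 5 CD8 T and NK cell markers to between 80.8 and 157 CPM, 2 of them being higher in CD44high Tregs in both subset comparisons. Neutrophil markers summed to at most 1.69 CPM in CD44low and 0.178 CPM in CD44high libraries of uninjured mice. In injured mice they reached 28.9 and 19.1 CPM. Of the 2 neutrophil markers tested, *S100a9* was higher after injury in both subsets. Of the macrophage and dendritic cell markers, *Lyz2* alone was higher after injury, in CD44low Tregs. Of the 4 stromal and endothelial markers, *Pdpn* was at 0 in all libraries and *Pecam1*, which some T cells also express, made up nearly all of the sum of 59.3 to 230.4 CPM. The part of cycling or of other cells in the differences below was not tested. In bulk RNA, a change in the mix of cells cannot be told apart from a change within each cell.

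Initiation factor genes took about 1% of all counts, and the share was lower in CD44high than in CD44low Tregs. It was 1.012% ± 0.0366 (SD, n = 5) in CD44low and 0.892% ± 0.0213 (n = 4) in CD44high Tregs of uninjured mice. The ranges were 0.953 to 1.041% and 0.870 to 0.912%, so no CD44high library reached the lowest CD44low library. After injury the share was 1.036% ± 0.050 (n = 6) in CD44low and 0.941% ± 0.0189 (n = 4) in CD44high Tregs, with ranges of 0.977 to 1.105% and 0.919 to 0.963%, again without overlap. Counted per kilobase of exon, so that long genes weigh no more than short ones, the 4 shares were 0.981%, 0.865%, 0.986% and 0.885% in the same order. Such shares weigh abundant genes most. The mean log2 CPM over the tested members weighs each gene alike, and it overlapped between the subsets. It spanned 6.86 to 7.01 in CD44low and 6.82 to 6.92 in CD44high libraries of uninjured mice. In injured mice it spanned 6.85 to 7.10 and 6.86 to 6.94. None of these measures, taken over genes chosen for this description, was given a test. By complex, the eIF4G genes took 0.177% ± 0.0189 of counts in CD44low and 0.11% ± 0.00732 in CD44high Tregs of uninjured mice, and the eIF4E genes 0.0260% ± 0.00212 and 0.0398% ± 0.000961. The members thus moved in both directions.

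**Figure D1:**
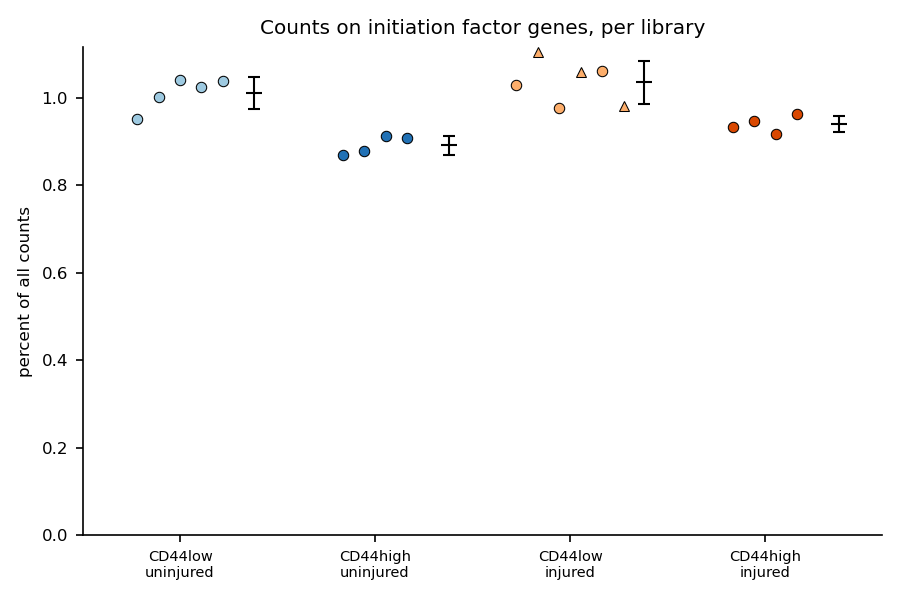
Percent of all counts that fell on the 51 initiation factor genes (vertical axis, starting at 0) in each of the 19 libraries, by group. Circles and triangles are libraries, triangles mark the 3 injured CD44low libraries whose label carries a second number, and black bars are the mean ± SD; all CD44high libraries lie at or below 0.963%, and CD44low libraries range from 0.953 to 1.105%.

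Levels differed over a wide range among the members. Per kilobase of exon, *Eif5a* was the most abundant with 550.2 CPM per kb averaged over the group means, followed by *Eif1* with 211 and the eIF3 subunit genes *Eif3h* with 152 and *Eif3b* with 144 CPM per kb. *Eif5a* encodes the factor that carries hypusine and helps peptide bonds to form, and it alone held 13.4% of all member counts. *Eif4g2*, an eIF4G relative that cannot bind eIF4E, held 11.4%. The lowest detected members were *Eif2s3x* at 2.75, *Eif5a2* at 4.07 and *Eif4ebp3* at 4.39 CPM per kb. Of the 2 genes for the eIF2 gamma subunit the Y-linked copy was the more abundant, and *Eif2s3y* stood 5.77 to 8.19 times above *Eif2s3x* per kilobase in the group means. For *Eif2s3x*, 34.6% of the 50-base windows also lie in *Gm2223*, so its level is uncertain. Of the windows of *Eif1* and *Eif3h*, 19.2% and 20.3% also lie in other genes, and their levels share this limit.

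The first comparison asks how CD44high Tregs, which carry the surface marker of antigen-experienced cells, differ from CD44low Tregs in uninjured mice. Here 7 of 48 tested members were higher in CD44high Tregs (14.6%) and 13 were lower (27.1%) at an adjusted p under 0.05 (edgeR quasi-likelihood test, Benjamini-Hochberg over all 11464 genes tested). The same rule called 24.7% of all genes higher and 21.3% lower. The median log2 fold change was -0.13 over the members and 0.00911 over all genes tested, while the median size of the change was 0.247 against 0.436. Most of the members called belonged to the cap-binding side of initiation. Of the 14 tested eIF4A, eIF4B, eIF4H, eIF4E, eIF4E-binding and eIF4G genes, 13 were called, 5 higher and 8 lower, against 7 of the other 34 members. In injured mice 7 of these 14 were called, 4 higher and 3 lower, against 8 of the other 34. There the test called 20.1% of all genes higher and 17.2% lower. *Eif4a3*, the helicase gene of the exon junction complex, was counted with the other 34 and was called in neither subset comparison. That grouping was made after the values were seen and was given no test.

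**Figure D2:**
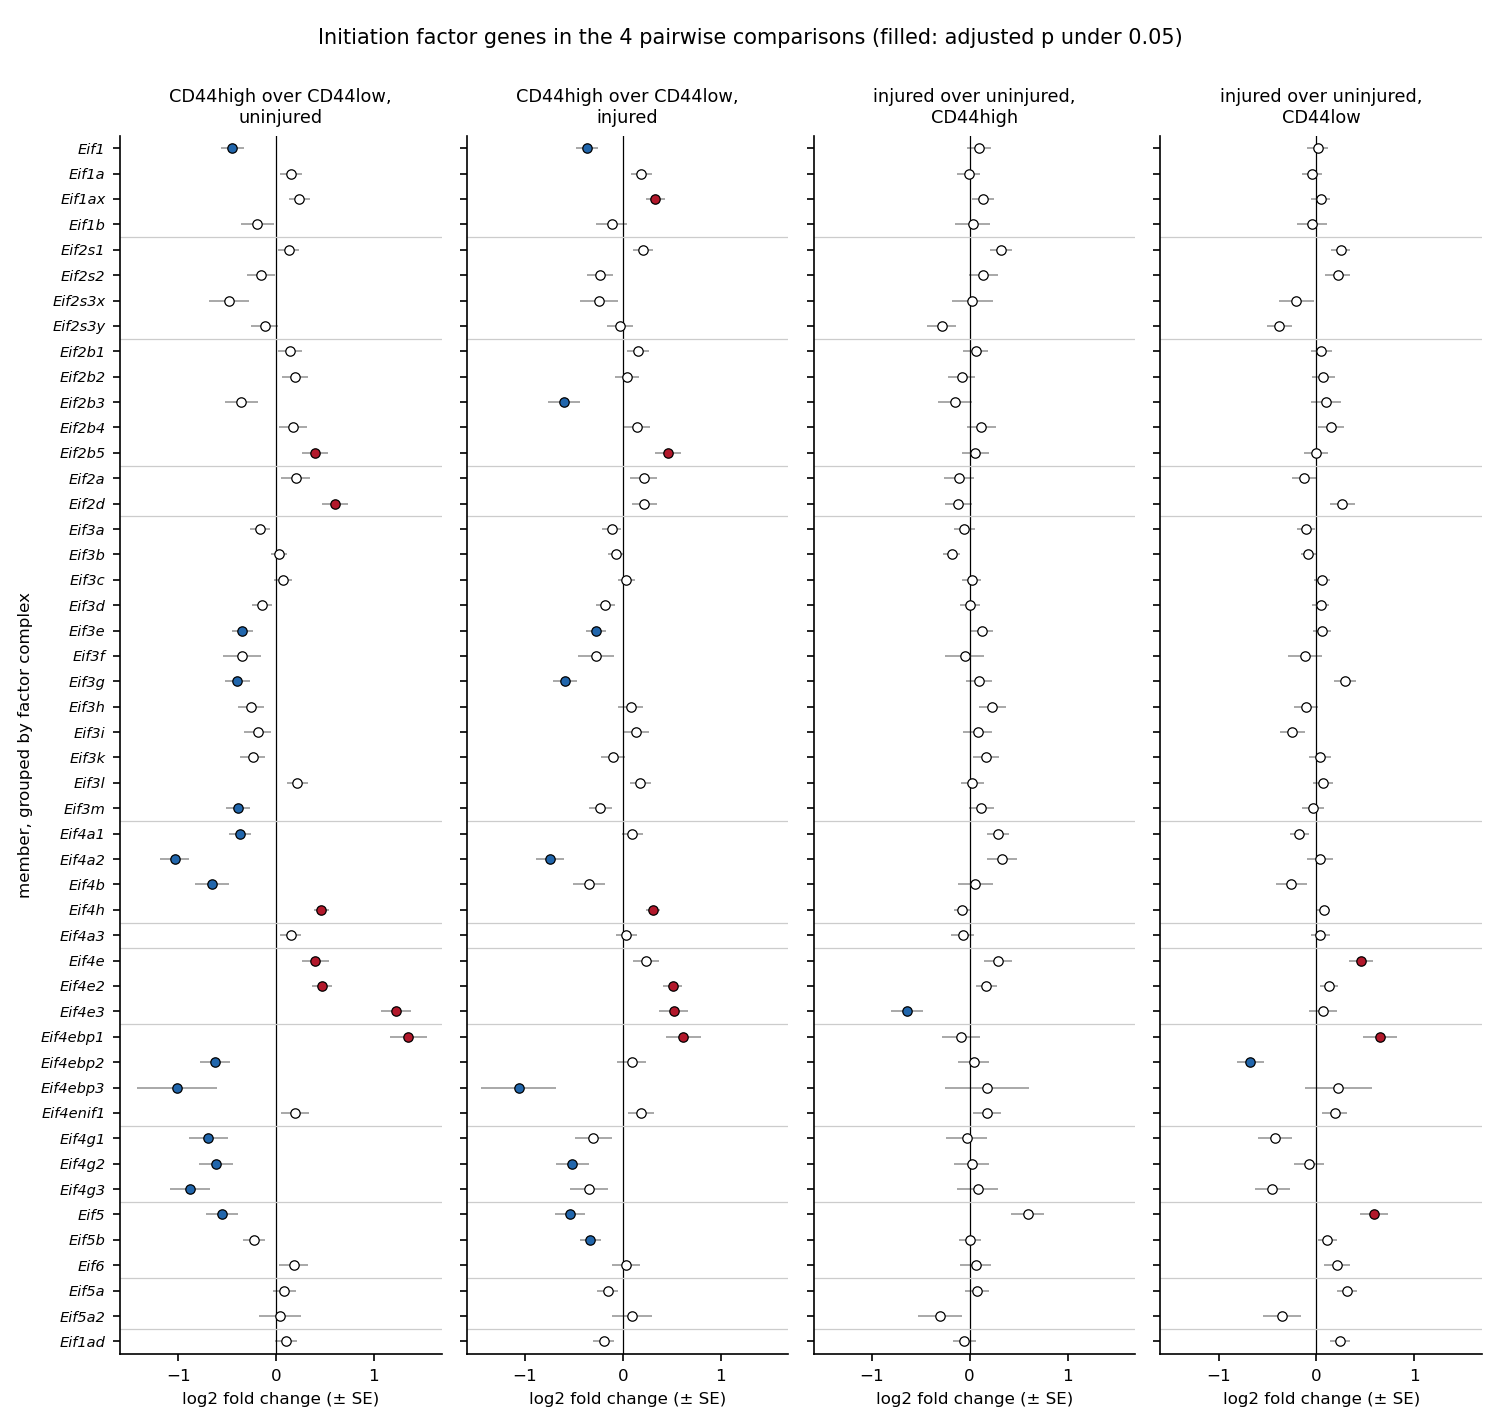
Log2 fold change ± SE (horizontal axis) of each of the 48 tested members (rows, grouped by factor complex between grey lines) in the 4 pairwise comparisons. Red points are called higher and blue points lower at an adjusted p under 0.05 and open points are not called; the eIF4 rows hold most of the filled points in the first panel, and the 2 injury panels hold 1 and 4 filled points.

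RNA of all 3 detected genes for cap-binding proteins was higher in CD44high Tregs. *Eif4e3*, an eIF4E relative that binds the cap in an unusual way, stood at 38.6, 52.5, 68.3, 78.2 and 55.5 CPM in the 5 CD44low libraries and at 132, 127, 143 and 147 CPM in the 4 CD44high libraries. The groups did not overlap, and the log2 fold change was 1.22 (SE 0.154, adjusted p = 7.12e-07). *Eif4e2*, which encodes 4EHP, a cap-binding protein that represses translation, was at 117, 114, 113, 110.2 and 118 CPM in CD44low and at 165, 171, 157 and 141 CPM in CD44high Tregs. All CD44high libraries were above all CD44low libraries, by 0.47 on the log2 scale (SE 0.101, adjusted p = 0.000615). *Eif4e* itself, the main cap-binding factor, rose from 83.7 ± 10.6 to 111 ± 6.54 CPM (log2 fold change 0.40, adjusted p = 0.0185), and this call was lost without CD44low library 1 (0.34, adjusted p = 0.0570). For *Eif4e3*, 11.5% of the 50-base windows also lie in *Gm20696*, an overlapping gene on the same strand.

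The 3 genes for eIF4E-binding proteins did not move together. *Eif4ebp1* stood at 10.9, 15.4, 9.94, 11.8 and 16.0 CPM in CD44low and at 31.0, 30.5, 34.7 and 34.4 CPM in CD44high libraries. Every CD44high value was above every CD44low value, and the log2 fold change of 1.35 (SE 0.191, adjusted p = 3.61e-06) was the highest of any member. *Eif4ebp2* went the other way, with 77.2, 54.2, 68.1, 71.9 and 84.9 CPM in CD44low and 37.6, 42.9, 48.2 and 55.6 CPM in CD44high libraries. Only the lowest CD44low and the highest CD44high library overlapped, and the log2 fold change was -0.63 (SE 0.153, adjusted p = 0.00186). Per kilobase, the ratio of *Eif4ebp1* to *Eif4ebp2* was 0.487 ± 0.155 in CD44low and 1.89 ± 0.221 in CD44high Tregs. *Eif4ebp3* was scarce, at 4.07 ± 1.06 and 1.99 ± 0.464 CPM, and 65.5% of its 50-base windows also lie in *AC115631.1*, a same-strand transcript that overlaps it. Its call (log2 fold change -1.01, adjusted p = 0.0463) was lost under 16 of 29 other settings. *Eif4enif1*, which encodes the eIF4E transporter 4E-T, was at 38.2 ± 5.75 and 43.6 ± 7.37 CPM and was not called.

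The scaffold and helicase genes were mostly lower. All 3 eIF4G genes were called, with log2 fold changes of -0.69 for *Eif4g1* (adjusted p = 0.00638), -0.62 for *Eif4g2* (adjusted p = 0.00545) and -0.88 for *Eif4g3* (adjusted p = 0.00115). With a trend on transcript length taken out, *Eif4g2* was at -0.35 (adjusted p = 0.0363) and *Eif4g3* at -0.57 (adjusted p = 0.00350), both still called. *Eif4g3* spanned 142 to 153 CPM in CD44low and 71.2 to 89.6 CPM in CD44high libraries. Neither it nor the other eIF4G genes overlapped between the groups. *Eif4a2* was the member with the largest decrease, at 57.7, 94.1, 76.7, 84.1 and 84.1 CPM in CD44low and 35.7, 32.4, 47.2 and 39.3 CPM in CD44high libraries (log2 fold change -1.04, SE 0.150, adjusted p = 5.19e-06). Its paralog *Eif4a1* encodes the more abundant form of the same helicase and fell from 353 ± 25.9 to 273 ± 26.1 CPM (log2 fold change -0.37, adjusted p = 0.00945). The per-kilobase ratio of *Eif4a2* to *Eif4a1* was 0.183 ± 0.0314 in CD44low and 0.114 ± 0.0100 in CD44high Tregs. In *Eif4a1*, 28.4% of the windows also lie in other genes, most of them in the pseudogene *Eif4a-ps4*. In *Eif4a2* 10.6% do, and its exons overlap those of 7 genes, among them *Rfc4* on the opposite strand. The cDNA kit does not mark strand, so reads from *Eif4a2* and *Rfc4* cannot be told apart where they overlap. The part of such reads in the decrease was not tested.

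Both helicase cofactors were called, in opposite directions. *Eif4h* was at 356, 351, 357, 344 and 372 CPM in CD44low and 488, 499, 474 and 499 CPM in CD44high libraries. The spread within each group was small beside the difference, and the log2 fold change was 0.46 (SE 0.0760, adjusted p = 2.92e-05). *Eif4b*, by contrast, fell from 261 ± 41.6 to 165 ± 21.1 CPM (log2 fold change -0.66, adjusted p = 0.00352).

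**Figure D3:**
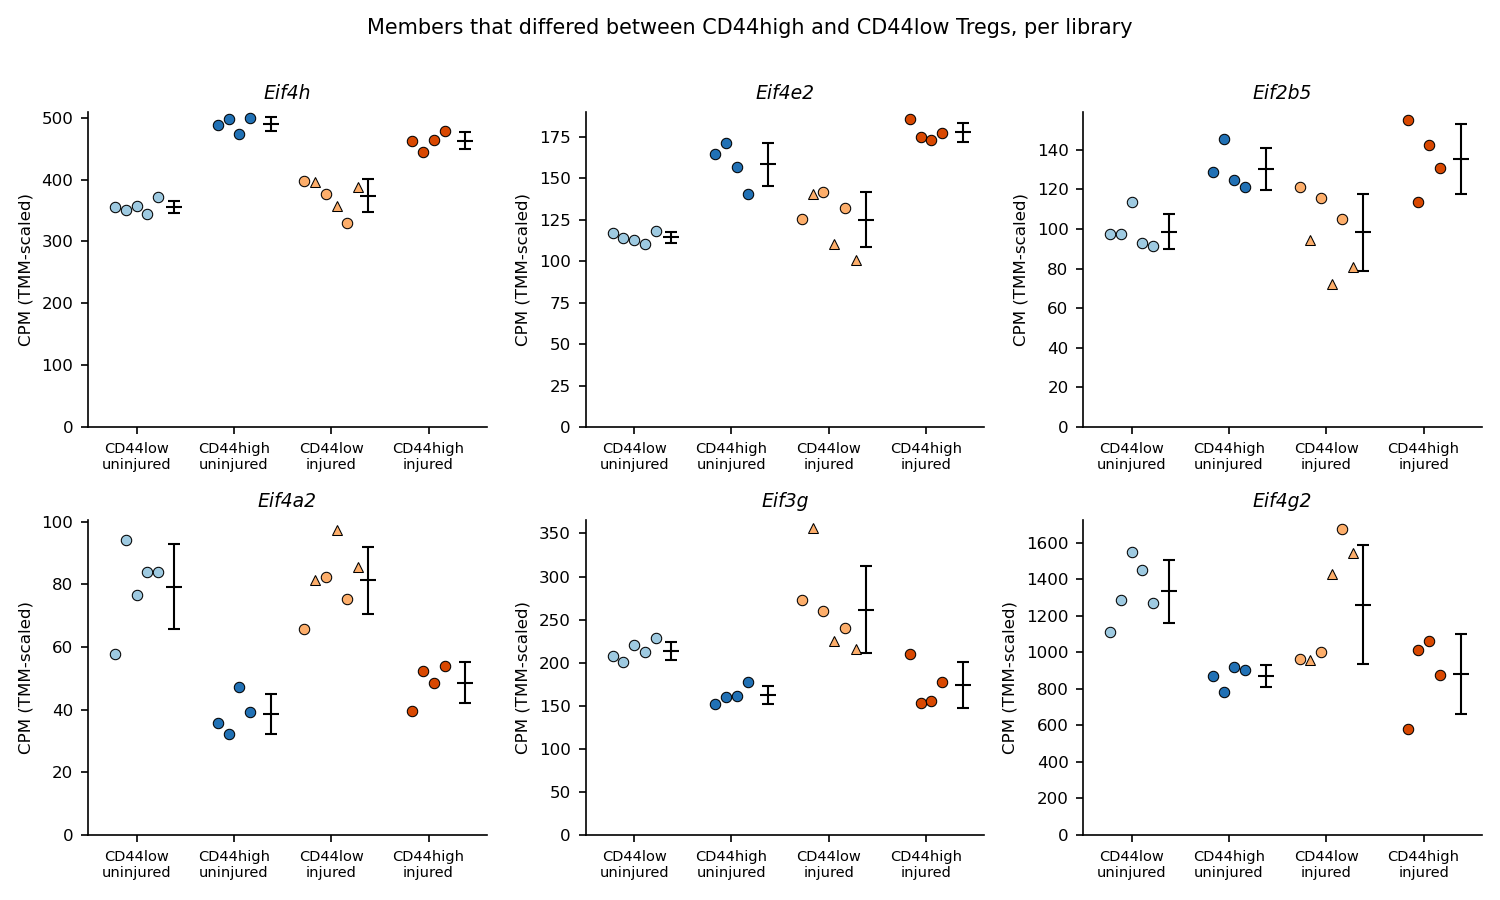
CPM per library (vertical axes, starting at 0) of 6 members that differed between the subsets in both uninjured and injured mice, by group. Points are libraries, triangles mark injured CD44low libraries with a second number and black bars are the mean ± SD; *Eif4h*, *Eif4e2* and *Eif2b5* are higher and *Eif4a2*, *Eif3g* and *Eif4g2* lower in CD44high Tregs, and for *Eif4g2* and *Eif2b5* the injured groups overlap.

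Outside the eIF4 group fewer members were called. None of the 4 genes for eIF2 subunits passed the test, the lowest being *Eif2s3x* at a log2 fold change of -0.48 (adjusted p = 0.0562). Among the 5 eIF2B genes only *Eif2b5*, which encodes the catalytic epsilon subunit, was called, at 98.5 ± 8.90 CPM in CD44low and 130.1 ± 10.7 CPM in CD44high Tregs (log2 fold change 0.40, adjusted p = 0.0175). Without CD44high library 3 its adjusted p was 0.0733, and with the length trend taken out it was at 0.21 (adjusted p = 0.159). *Eif2d*, whose product can deliver initiator tRNA without eIF2, was higher by 0.60 on the log2 scale (adjusted p = 0.000906), but its exons overlap those of *Rassf5* on the opposite strand. The cDNA kit does not mark strand, so reads from these 2 genes cannot be told apart where they overlap.

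The eIF3 complex is the largest initiation factor, and most of its genes did not pass the test. Of its 12 tested subunit genes 3 were lower (25.0%, near the 21.3% of all genes), 0 were higher and 9 were not called, with a median log2 fold change of -0.21. The 3 were *Eif3e*, *Eif3g* and *Eif3m*, at log2 fold changes of -0.34, -0.39 and -0.39 (adjusted p = 0.0115, 0.0126 and 0.0133). With a trend on transcript length taken out, *Eif3e* was not called (-0.24, adjusted p = 0.0998). *Eif3l* had the highest value of the complex, 0.22 (adjusted p = 0.109). Of the eIF1 and eIF1A genes, *Eif1*, which guards the choice of start codon, fell by 0.45 on the log2 scale (adjusted p = 0.00368). Its paralog *Eif1b* was at -0.19 (adjusted p = 0.366). *Eif5*, which drives GTP hydrolysis by eIF2, was at 341 to 434 CPM in CD44low and 257 to 287 CPM in CD44high libraries, without overlap (log2 fold change -0.55, adjusted p = 0.00810). *Eif5a* (0.09), *Eif5a2* (0.04), *Eif5b* (-0.22), *Eif6* (0.18), which keeps the ribosomal subunits apart, and *Eif4a3* (0.15), the helicase of the exon junction complex, were not called.

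In injured mice the same subset comparison called 6 members higher (12.5%) and 9 lower (18.8%), beside 20.1% and 17.2% of all genes tested. The member median was 0.00248 and that of all genes was -0.00049, and the median size of the change was 0.216 against 0.356. The comparisons in uninjured and injured mice share no libraries, although they share 1 estimate of the spread. Of the members, 5 were called higher in both (*Eif2b5*, *Eif4e2*, *Eif4e3*, *Eif4ebp1* and *Eif4h*), 7 lower in both (*Eif1*, *Eif3e*, *Eif3g*, *Eif4a2*, *Eif4ebp3*, *Eif4g2* and *Eif5*), and 0 in opposite directions. Another 8 were called in uninjured mice alone and 3 in injured mice alone, and 25 in neither. The share of all genes called in both comparisons was not counted, so these numbers do not set the members apart from other genes. A call in one of them alone does not show a difference between them, which is tested with the interaction further on.

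*Eif4e2* had the smallest p among the members that were higher. It stood at 186, 175, 173 and 177 CPM in the CD44high libraries and at 100.5 to 142 CPM with a median of 129 CPM in the 6 CD44low libraries (log2 fold change 0.51, SE 0.0963, adjusted p = 0.000203). *Eif4h* followed with 463, 445, 464 and 479 CPM against 330 to 398 CPM, median 383 (0.31, adjusted p = 0.00184). Neither gene overlapped between the subsets. *Eif4e3* was at 93.0, 84.5, 88.1 and 86.6 CPM against 53.6 to 76.9 CPM, median 55.4 (0.52, adjusted p = 0.00783), again with no overlap but a smaller gap than in uninjured mice. *Eif4ebp1* was at 33.3, 27.6, 28.8 and 33.5 CPM in CD44high libraries and at 15.9 to 31.4 CPM, median 17.9, in CD44low libraries (0.62, adjusted p = 0.00838). Here 1 CD44low library, labelled 1_2, lay among the CD44high values.

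Among the members that were lower, *Eif4a2* had the smallest p. Its CD44high libraries were at 39.6, 52.4, 48.5 and 54.0 CPM, all below the CD44low range of 65.6 to 97.5 CPM with a median of 81.9 (log2 fold change -0.74, SE 0.142, adjusted p = 0.000232). *Eif3g*, which encodes an RNA-binding subunit of eIF3, was at 211, 153, 155 and 178 CPM against 216 to 356 CPM, median 250.1 (-0.59, adjusted p = 0.000476). The highest CD44high library thus came close to the lowest CD44low library without reaching it. *Eif2b3*, the gamma subunit of eIF2B, was lower (-0.60, adjusted p = 0.00507) while *Eif2b5* was higher (0.46, adjusted p = 0.00633). *Eif5* was lower by nearly the same amount as in uninjured mice (-0.54, adjusted p = 0.00847), and *Eif5b*, the GTPase that joins the ribosomal subunits, was called at -0.33 (adjusted p = 0.0175) but not with the length trend taken out (-0.20, adjusted p = 0.231). *Eif4g2* was called at -0.52 (adjusted p = 0.0174), and *Eif4g1* and *Eif4g3* were at -0.30 and -0.34 and were not called. The eIF3 genes gave 2 lower (*Eif3e* and *Eif3g*) of 12, or 16.7%, near the 17.2% of all genes, and the call of *Eif3e* was lost under 12 of 29 other settings. Of the eIF2 genes 0 were called. Without CD44high library 2, *Eif4g2* was at -0.39 with an adjusted p of 0.0696.

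Of the 6 injured CD44low libraries, 3 carry a second number in their label (1_2, 4_2 and 5_2), whose meaning is not given. With those 3 left out, 5 members were lower in place of 9, and *Eif1*, *Eif3e*, *Eif4g2*, *Eif5b* and *Eif4ebp3* were lost, as was *Eif2b5* among those that were higher (0.25, adjusted p = 0.111). With those 3 as the only CD44low libraries, 15 members were lower, but *Eif5* (-0.29, adjusted p = 0.0680) and *Eif4ebp1* (0.40, adjusted p = 0.138) lost their calls. *Eif4e2*, *Eif4a2*, *Eif3g*, *Eif4h*, *Eif4e3*, *Eif2b3* and *Eif1ax* were called either way.

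The stretches before the annotated starts are shown for 2 members called higher and 2 called lower in both subset comparisons. They had the smallest p in injured mice among such members with a promoter window. Each of these genes kept its own direction in 2 sets of libraries that do not overlap, and the 2 pairs moved in opposite directions. Each has the 100 bases before the start on the gene's strand, from RefSeq on GRCm38.p6, and capitals mark a motif where 1 of the 2 searched was found.
Eif4e2, chr1:87213811-87213910, plus strand: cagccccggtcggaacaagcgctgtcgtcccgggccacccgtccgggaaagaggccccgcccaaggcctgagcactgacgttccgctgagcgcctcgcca
Eif4h, chr5:134639410-134639509, minus strand: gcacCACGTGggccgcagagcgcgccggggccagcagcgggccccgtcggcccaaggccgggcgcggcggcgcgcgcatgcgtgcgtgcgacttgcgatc
Eif4a2, chr16:23107368-23107467, plus strand: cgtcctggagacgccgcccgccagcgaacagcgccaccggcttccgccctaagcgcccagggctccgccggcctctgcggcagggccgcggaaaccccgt
Eif3g, chr9:20898591-20898690, minus strand: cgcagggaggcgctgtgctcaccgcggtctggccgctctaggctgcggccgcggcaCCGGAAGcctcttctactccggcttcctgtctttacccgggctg
The motifs were the E-box CACGTG, to which Myc and its partner Max are known to bind, and the ETS core CCGGAAG, each on both strands, and neither can overlap the other. The E-box stood in the stretch of *Eif4h* and the ETS core in that of *Eif3g*, and neither stood in the stretches of *Eif4e2* and *Eif4a2*. The wider windows described next also held the ETS core for *Eif4e2*, a member called higher.

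Promoter windows from 250 bases before to 50 after the start were matched by symbol for 39 of the 51 members, which gave 51 windows. The E-box was in 12 of these windows (23.5%), against 10.1% of the windows of all genes tested and 7.15% of all windows. Its 10 genes were *Eif1b*, *Eif3a*, *Eif3f*, *Eif3k*, *Eif4a1*, *Eif4e*, *Eif4g1*, *Eif4h*, *Eif5a* and *Eif5a2*. They included members called higher, members called lower and members not called between the subsets. The ETS core was in 18 windows (35.3%), against 18.7% and 8.86%. Counted by gene it was in 15 members (38.5%), against 21.8% and 9.93%. A C followed by 4 pyrimidines at the annotated start, the mark of mRNAs whose translation mTORC1 is known to control, was in 2 windows (3.92%), against 2.30% of windows of genes tested and 2.51% of all windows. The first 20 bases of those 2 genes show it, with the unbroken run of pyrimidines in capitals.
Eif3f, chr7:108934415-108934434, plus strand: CTCTCTTTCTCggcaagatg
Eif2s3x, chrX:94212632-94212651, minus strand: CTTTTCTCTCCgagcaagat
Neither gene was called in any of the 4 pairwise comparisons. Without the second-number libraries *Eif3f* was called lower in CD44low Tregs after injury (-0.57, adjusted p = 0.00675). A match says only that the letters are present.

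Few genes were called for injury, among the initiation factor genes as among all genes. These comparisons use the same 4 groups as the subset comparisons. In CD44high Tregs 0 members rose and 1 fell (2.08%) 7 days after the burn, where the test called 1.06% of all genes higher and 1.33% lower. The member median was 0.0494 against -0.021 over all genes. By edgeR 6 of the 48 members had an unadjusted p under 0.05, beside 1736 of all 11464 genes tested. The gene that fell was *Eif4e3*, from 132, 127, 143 and 147 CPM to 93.0, 84.5, 88.1 and 86.6 CPM. The groups did not overlap, and the log2 fold change was -0.64 (SE 0.162, adjusted p = 0.0342). Leaving out any 1 of the 8 CD44high libraries took the adjusted p to between 0.0722 and 0.108, with log2 fold changes of -0.66 to -0.60. *Eif5* was next, at 276, 257, 269 and 287 CPM before and 381, 453, 324 and 487 CPM after injury. All injured libraries were above all uninjured libraries, yet the test did not call it (log2 fold change 0.59, SE 0.170, adjusted p = 0.0654). DESeq2 did call it (adjusted p = 0.0259), as did edgeR on these 2 groups alone (adjusted p = 0.00533), which also called *Eif2s1* at 0.35 (adjusted p = 0.0491).

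In CD44low Tregs 3 members rose (6.25%) and 1 fell (2.08%) after injury, beside 4.24% of all genes higher and 3.36% lower. The member median was 0.0427 and that of all genes 0.00767. The gene that fell was *Eif4ebp2*, from 77.2, 54.2, 68.1, 71.9 and 84.9 CPM to 37.9 to 51.3 CPM with a median of 44.9 (log2 fold change -0.67, SE 0.137, adjusted p = 0.00531). No injured library reached the lowest uninjured library. Its level after injury was near that of CD44high Tregs, at 44.6 ± 5.38 CPM in CD44low and 47.5 ± 9.38 CPM in CD44high Tregs, and the subset difference of 0.09 in injured mice did not pass the test (adjusted p = 0.663).

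The genes that rose were *Eif5*, *Eif4e* and *Eif4ebp1*. *Eif5* went from 341, 405, 410.4, 402 and 434 CPM to 442 to 879 CPM with a median of 524 (log2 fold change 0.59, SE 0.146, adjusted p = 0.0177), without overlap. The difference from the value in CD44high Tregs was 0.01 (SE 0.223, adjusted p = 0.999). *Eif4e* went from 69.9, 79.1, 81.5, 90.6 and 97.2 CPM to 85.7 to 142 CPM, median 117.0 (0.46, adjusted p = 0.0274), and the groups overlapped. *Eif4ebp1* went from 10.9, 15.4, 9.94, 11.8 and 16.0 CPM to 15.9 to 31.4 CPM, median 17.9 (0.65, adjusted p = 0.0281), with library 1_2 well above the other injured libraries and the lowest injured library inside the uninjured range. *Eif5a* stood at 1092 to 1316 CPM before and 1210 to 1980 CPM after injury and was not called (0.31, adjusted p = 0.0590), although DESeq2 called it (0.33, adjusted p = 0.0238). By edgeR over all 4 groups 0 of the eIF2, eIF2B and eIF3 genes were called after injury in either subset, but other settings called *Eif2s1* in CD44high Tregs and *Eif2s3y* in CD44low Tregs (DESeq2, -0.36, adjusted p = 0.0417). Without library 1_2 the log2 fold change of *Eif4ebp1* was 0.48 and the adjusted p 0.0678. The call of *Eif4e* was lost without CD44low uninjured library 1 (adjusted p = 0.0646), injured library 1 (0.0540) or injured library 1_2 (0.0576), and that of *Eif4ebp1* also without uninjured library 1 (0.0604) or 3 (0.0603).

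The libraries with a second number bore on these calls as well. Without them 5 members rose and 7 fell. *Eif4ebp2* (-0.78, adjusted p = 0.00446), *Eif5* (0.82, adjusted p = 0.00108) and *Eif4e* (0.58, adjusted p = 0.00359) were still called, *Eif4ebp1* was not (0.43, adjusted p = 0.0860), and *Eif4g1* (-0.69, adjusted p = 0.0172), *Eif4g3* (-0.71, adjusted p = 0.00963) and *Eif4b* (-0.53, adjusted p = 0.0344) were among the genes then called lower. With the second-number libraries alone, *Eif4ebp1* rose (0.86, adjusted p = 0.0234) and 0 members fell, *Eif4ebp2* being at -0.55 (adjusted p = 0.0728), *Eif5* at 0.34 (adjusted p = 0.104) and *Eif4e* at 0.33 (adjusted p = 0.168). *Eif4g3* spanned 75.4 to 155 CPM over the 6 injured libraries, the 2 highest being 4_2 and 5_2. The part of these labels in the differences was not tested beyond these values.

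**Figure D4:**
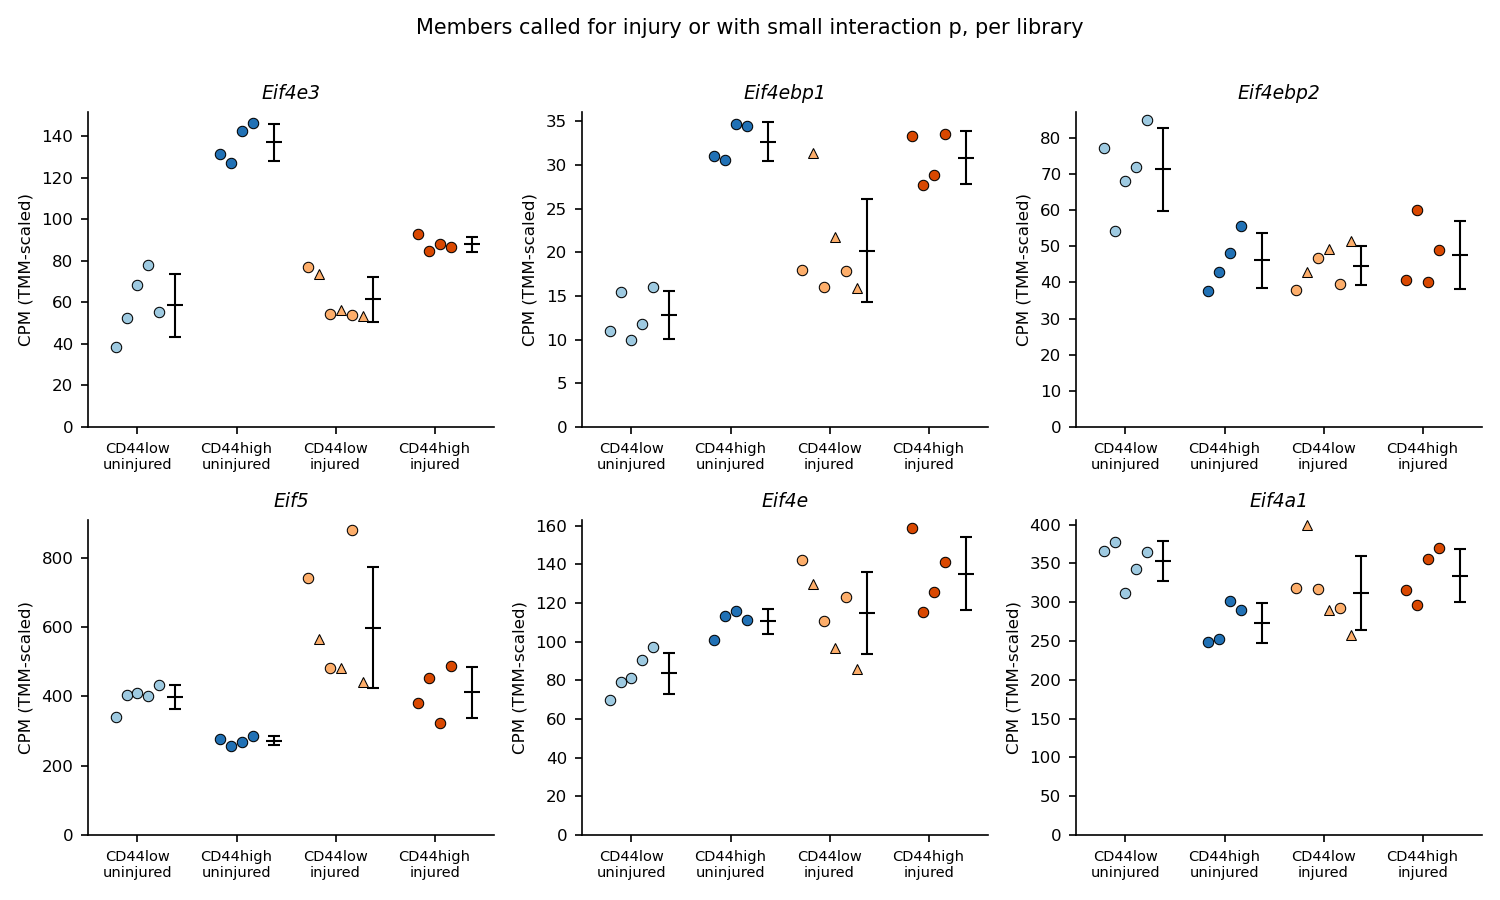
CPM per library (vertical axes, starting at 0) of the 5 members called after injury in either subset and of *Eif4a1*, by group. Points are libraries, triangles mark injured CD44low libraries with a second number and black bars are the mean ± SD; *Eif4e3* falls in CD44high Tregs from at least 127 to at most 93.0 CPM, *Eif4ebp2* falls in CD44low Tregs to 37.9 to 51.3 CPM, and *Eif5* is above the uninjured range in every injured library of both subsets.

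Whether injury acted differently on the subsets was tested as the interaction, and 0 members passed in either direction, where 0.192% of all genes were called higher and 0.454% lower. By edgeR 4 of the 48 members had an unadjusted p under 0.05, beside 1247 of all 11464 genes tested. By DESeq2 0 members passed as well. The 4 members with a small edgeR p were *Eif4ebp2* (0.72, adjusted p = 0.138), *Eif4e3* (-0.70, adjusted p = 0.152), *Eif4a1* (0.46, adjusted p = 0.190) and *Eif4ebp1* (-0.73, adjusted p = 0.251). A positive value means a larger rise in CD44high Tregs. *Eif4a1* was at 273 ± 26.1 and 334 ± 33.8 CPM in CD44high Tregs and at 353 ± 25.9 and 313 ± 47.7 CPM in CD44low Tregs, before and after injury. All 4 belong to the eIF4 group, which was set apart after the values were seen. For none of them did the data show that the effect of injury differed between the subsets.

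The ratios between related genes put these levels side by side. The per-kilobase ratio of *Eif4e3* to *Eif4e* was 1.67 ± 0.349 in CD44low and 2.97 ± 0.210 in CD44high Tregs of uninjured mice, and 1.29 ± 0.162 and 1.57 ± 0.168 in injured mice. The ratio of *Eif4ebp1* to *Eif4ebp2* after injury was 1.21 ± 0.391 in CD44low and 1.77 ± 0.399 in CD44high Tregs, with ranges of 0.816 to 1.93 and 1.21 to 2.15. These ranges overlapped, while those of uninjured mice, 0.373 to 0.750 and 1.63 to 2.17, did not. *Eif1b* to *Eif1* stayed between 0.194 and 0.356 in all libraries, *Eif1a* to *Eif1ax* between 0.916 and 1.39, and *Eif5a2* to *Eif5a* at or below 0.0110. The ratios were given no test.

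**Figure D5:**
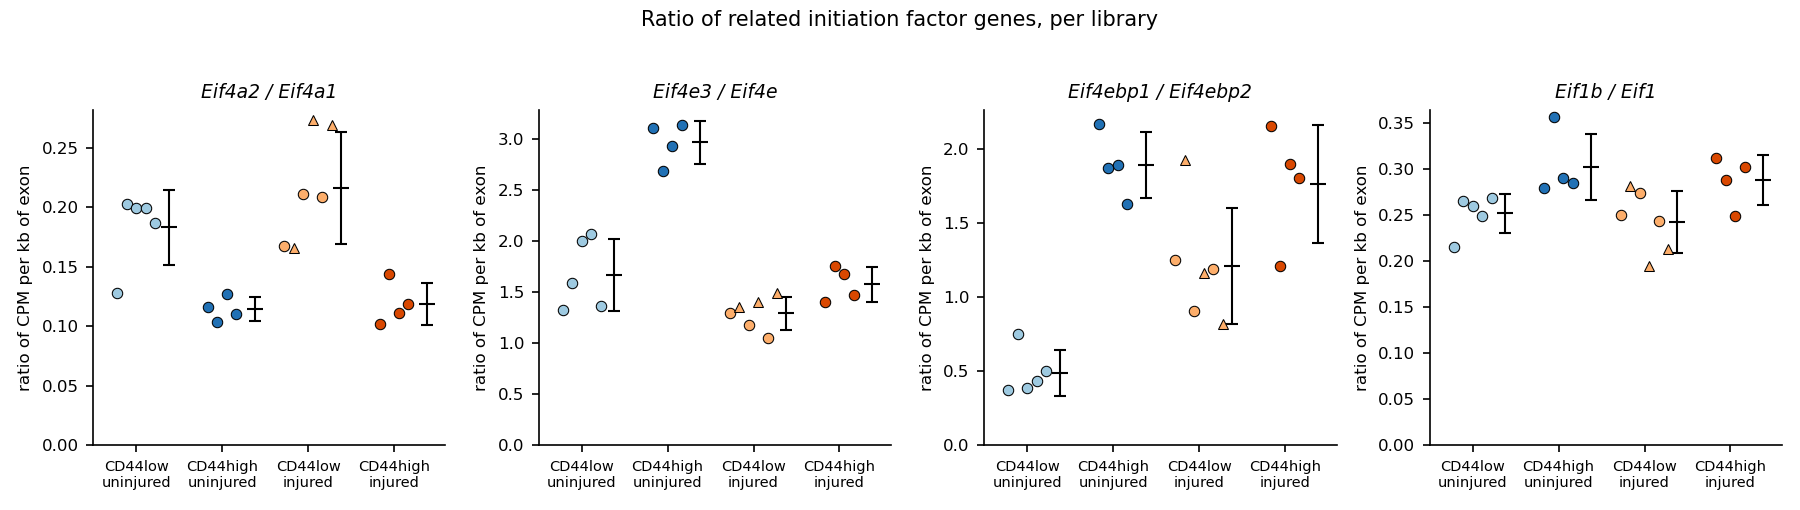
Ratio of CPM per kilobase of exon (vertical axes, starting at 0) between 4 pairs of related genes in each library, by group. Points are libraries, triangles mark injured CD44low libraries with a second number and black bars are the mean ± SD; *Eif4a2* to *Eif4a1* is lower and *Eif4ebp1* to *Eif4ebp2* higher in CD44high than in CD44low Tregs of uninjured mice, and *Eif4e3* to *Eif4e* is highest in CD44high Tregs of uninjured mice.

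Genes around initiation were described from a list of 47, of which 45 were tested. In uninjured mice 7 were higher and 18 lower in CD44high Tregs, and in injured mice 7 and 13, where the shares of all genes called were 24.7% and 21.3%, then 20.1% and 17.2%. Its lists hold 2 to 11 genes each, too few to set a share against those of all genes. Of 7 elongation factor genes 5 and then 4 were lower and 0 higher, among them *Eef1a1*, which brings aminoacyl tRNAs to the ribosome, at log2 fold changes of -0.83 (adjusted p = 0.000872) and -0.51 (adjusted p = 0.0277). Of 11 regulators of mTORC1 and eIF4, 6 and then 4 were lower and 1 was higher each time. They included *Pdcd4*, an inhibitor of eIF4A, at -1.07 (adjusted p = 0.000338) and -0.71 (adjusted p = 0.00958), and *Larp1*, which binds mRNAs with a pyrimidine start, at -1.11 (adjusted p = 3.48e-06) and -1.08 (adjusted p = 3.94e-06).

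Genes of the eIF2 stress pathway were split. Among the 4 eIF2 kinases 2 were higher in uninjured and 1 in injured mice and 0 were lower, and *Eif2ak2*, the kinase PKR, was called both times (0.85, adjusted p = 0.00269, and 0.92, adjusted p = 0.00105). Of the 6 tested genes of the integrated stress response 2 were higher and 2 lower in each subset comparison. *Asns*, which makes asparagine, was at 3.36 (adjusted p = 4.22e-08) and 2.29 (adjusted p = 2.70e-06). *Ppp1r15a*, a subunit of the phosphatase that reverses eIF2 phosphorylation, was at -1.04 (adjusted p = 0.0112) and -1.31 (adjusted p = 0.00256), and both phosphatase subunit genes fell in CD44low Tregs after injury. The release and recycling genes (1 higher and 1 lower of 5, then 1 and 0), the genes for poly(A) binding (0 and 1 of 5 both times) and the 2 hypusine enzymes (0 called) gave few calls in the subset comparisons.

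*Myc*, a transcription factor known to drive many translation genes, was lower in CD44high Tregs in uninjured mice (-1.42, adjusted p = 8.48e-11) and in injured mice (-1.25, adjusted p = 6.82e-10). It was the 1 gene of the 45 that rose in CD44high Tregs after injury (0.45, adjusted p = 0.0216), and 0 fell. In CD44low Tregs 2 of the 45 rose and 5 fell after injury. The interaction called 1 gene of the list, *Max*, the partner of Myc (2.27, adjusted p = 0.00321). The 45 genes were chosen with earlier results known, and their counts are given no test.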

How the data were processed

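The authors aligned reads with STAR and processed them through the VIPER workflow, and deposited raw counts per gene, which are not normalized; the submitters' processing notes name STAR 2.5, bcl2fastq 2.18 and both mm9 and mm10, and which build the counts rest on is not given. cDNA was made with SMART-Seq v4, a kit that does not mark strand. From the deposited counts, genes were filtered with filterByExpr (minimum count 10, 11464 kept), scaled by TMM and fitted with edgeR 4.0.16 (R 4.3.3) by its quasi-likelihood test, with 1 mean per group over all 19 libraries, two-sided, Benjamini-Hochberg adjustment over all genes tested and calls at 0.05. CPM are TMM-scaled. Lengths are the exon union of GENCODE vM21. The test was also run on simulated counts with a fixed spread and 2-fold changes, a simpler setting than these data. The interaction is the injury effect in CD44high minus that in CD44low Tregs.

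The members and gene lists were chosen with earlier results of these data known. Genes named were, per comparison and direction, the 4 members of smallest p among those called, the 4 of smallest p in the interaction, the related pairs and the lowest and highest of a complex; other members and the genes around initiation were named after their values were seen. Alternatives covered scaling, filtering, DESeq2 1.42.0, the groups compared alone, length, replicate number, the libraries with a second number and leaving out each library.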

Additional observations from a re-analysis of the deposited data

Results flagged for a closer look

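*Eif2b5* in CD44low library 3 of uninjured mice was at 113.7 CPM, while the other 4 libraries of the group were at 91.3 to 97.4 CPM. The gap to the next library was 0.729 of the range of the group, above the limit of 0.710 for 5 samples. It was the only such library among 96 group values looked at, where chance alone gives about 1 in 20. Without CD44low library 3 the call of *Eif2b5* in uninjured mice remained.

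*Max*, which is not an initiation factor gene, differed between the subsets in its response to injury (interaction 2.27 on the log2 scale, SE 0.380, edgeR adjusted p = 0.00321). It was at 93.2 to 122 CPM in CD44low Tregs before and at 25.0 to 62.6 CPM after injury. In CD44high Tregs it was at 20.5 to 62.6 CPM before and 39.7 to 98.2 CPM after, and that change of 0.82 did not pass the test (adjusted p = 0.149). The cause was not tested.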

How the results depend on the processing

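No called member and none of the 4 named interaction values changed direction under any alternative run. The counts of members called between the subsets in uninjured mice (7 higher, 13 lower) stayed within 1.5 times under all alternatives but the stricter rule below. When each library was left out in turn they were 6 to 9 and 12 to 14; in injured mice they were 5 to 6 and 6 to 11, for injury in CD44high Tregs 0 to 1 in each direction, for injury in CD44low Tregs 1 to 6 higher and 1 to 3 lower, and for the interaction 0 to 0. An unadjusted p under 1e-06 with a 2-fold change left 2 higher (*Eif4e3* and *Eif4ebp1*) and 1 lower (*Eif4a2*) in uninjured mice and 0 members in every other comparison.

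With the second-number libraries left out, the subset comparison in injured mice gave 5 lower, injury in CD44high Tregs 1 higher, and injury in CD44low Tregs 5 higher and 7 lower; with those libraries alone the values were 15, 1, 1 and 0. For injury in CD44high Tregs, 1 member rose without the filter, with DESeq2, with libraries 1 and 1_2 and libraries 5 and 5_2 summed, or with a length trend taken out, and 2 rose with the compared groups alone; *Eif5* was the one in each case, with *Eif2s1* added in the last. For injury in CD44low Tregs, DESeq2 and the length trend gave 2 lower (*Eif2s3y* added), and the compared groups alone gave 1 higher. Nothing in the labels says that a replicate number marks a shared mouse or day, and the main test did not pair libraries by number. Same-numbered libraries deviated together at r = -0.0537 to 0.167 between subsets of the same injury status (4 of 8 pairs over 0.1). Between injury states of the same subset r was -0.12 to 0.0178 (0 of 10), and for other pairs -0.0376 to 0.0428 (0 of 8). Whether subset libraries of the same number share mice was not tested, and these values do not settle it. A replicate block by number left 0 members lower for injury in CD44high Tregs and 0 higher in CD44low Tregs. A replicate block within injury status gave 8 higher and 6 lower between the subsets in injured mice, without *Eif2b3* (-0.33, adjusted p = 0.140), *Eif5*, *Eif1*, *Eif5b* and *Eif3e* and with *Eif4e*, *Eif2s1*, *Eif4g1* and *Eif4g3*. The cause of these shifts was not tested. Depth limits the scarce members most: *Eif4ebp3* at 3.27 CPM had an SE of 0.410 in uninjured mice.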
